A study of Ovis aries with 6 samples.

Results

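Genes that mark the lining of blood and lymphatic vessels were followed in the perirenal fat depot of pure-bred wild-type Merino sheep. The genes were chosen by name. Of 10 names, PECAM1, CDH5, VWF, ROBO4, EGFL7, ESAM, LYVE1, PROX1, SOX17 and SOX18, 8 had a row among the 24390 genes of the deposited table, 1 row each, and all 8 passed the filter on low counts. PECAM1 and SOX18 had no row under these names and were not analysed here. RNA came from this fat of 3 fetuses near the end of gestation (132 of 150 days, counted from conception) and of 3 lambs kept on their mothers up to weaning. For the lambs the labels state 3 ages, namely 80 days from birth, 89 days and 12 weeks. No animal was treated per the labels, although the lamb titles include VEH, an abbreviation that the sources used here leave unexplained. Each library is labelled as a separate biological replicate, so n = 3 per stage throughout. The sources used here do not state the animals' sex.

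Endothelial cells line every vessel and are held together by adherens and tight junctions, and most of their identity genes are controlled by ETS, SOX and GATA transcription factors. Blood endothelium takes on arterial, venous or capillary character, while lymphatic endothelium arises from veins under the control of PROX1 and carries the hyaluronan receptor LYVE1. In adipose tissue the capillary bed brings fatty acids and oxygen to the adipocytes, and brown fat is known for a dense one.

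Values per gene are CPM (counts of a gene scaled to a common library size, with library sizes adjusted by TMM, the trimmed mean of M-values), and differences are log2 differences, lamb minus fetal, ± SE from edgeR. Calls rest on p-values adjusted after Benjamini and Hochberg across the 13624 tested genes, with 0.05 as the threshold. The libraries held between 15907128 and 19150428 counts. Mitochondrial genome genes took 27.5 to 40.7% of the counts in fetal libraries and 7.37 to 8.29% in lamb libraries. Scaling therefore bears on every value below that is not a ratio within a library. Adipocyte genes were abundant in every library, with 9 of 12 names in the table and summed levels of 13932 to 17399 CPM in fetuses and 27929 to 38579 CPM in lambs. Of 22 tested proliferation genes, 20 were called lower in lambs and 0 higher, against 22.7% and 22.0% of all tested genes. Kidney genes summed to between 3.22 and 6.10 CPM over all libraries, with AQP2 and SLC34A1 at 0, and adrenal genes to between 33.3 and 54.3 CPM, with DBH at 0. The adrenal genes of highest mean CPM were present in every library, STAR at 18.2 to 43.8 CPM and CHGA at 2.65 to 14.6 CPM. The urothelium list stood apart, with 56.2 to 192 CPM in fetal and 0.750 to 1.04 CPM in lamb libraries. All 10 of its tested genes were called lower in lambs, against the same 22.7%, and the part of these lists in the results was not tested.

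The endothelial genes did not move as a group between the stages. LYVE1 and SOX17 rose in lambs, CDH5 and EGFL7 fell, and VWF, ESAM, ROBO4 and PROX1 did not pass the test. With 2 genes higher and 2 lower out of 8, the share called was close to the background, in which 44.7% of all tested genes were called, 22.0% higher and 22.7% lower in lambs. The median log2 difference was 0.14 over the 8 genes and -0.01 over all genes tested. The stages did not overlap for 5 of the 8 genes, against 57.7% of all genes tested. Of these 5, 3 had every lamb higher, at a background of 28.2%, and 2 every lamb lower, at a background of 29.5%. In whole tissue, fewer endothelial cells and less RNA per endothelial cell cannot be told apart.

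**Figure D1:**
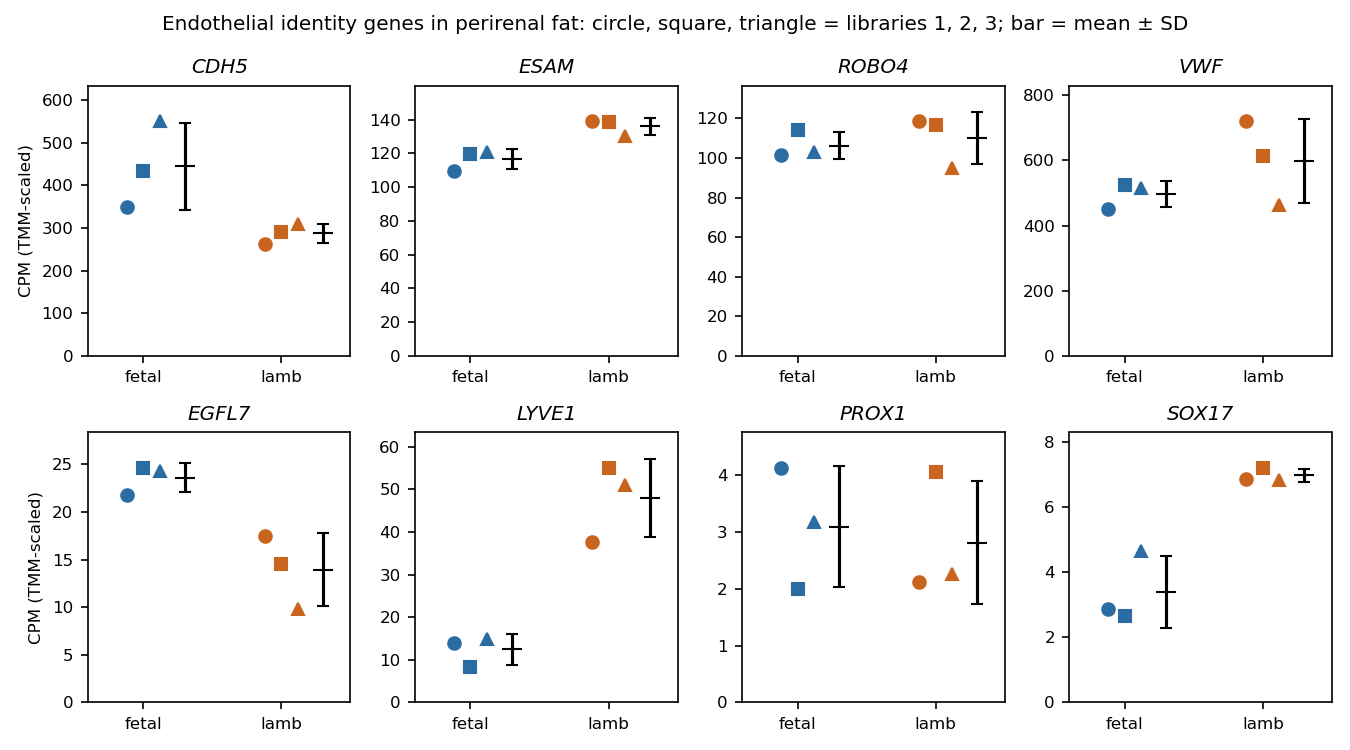
TMM-scaled CPM of the 8 endothelial genes in each library, with fetal libraries in blue and lamb libraries in orange, circles, squares and triangles for libraries 1, 2 and 3 of a stage, and bars for the mean ± SD (n = 3); each vertical axis starts at 0. LYVE1 and SOX17 lie higher in every lamb than in any fetus, CDH5 and EGFL7 lie lower, and PROX1, VWF and ROBO4 overlap.

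Among the junction genes, CDH5 encodes VE-cadherin, the adhesion molecule of endothelial adherens junctions (ENSOARG00000001849, chromosome 14, 33491872 to 33521046 on Oar v3.1). It stood at 348, 435 and 551 CPM in the 3 fetuses and at 263, 290 and 309 CPM in the 3 lambs. All 3 lambs were below all 3 fetuses, and the fetal values were spread more widely than the lamb values. CDH5 fell by 0.63 ± 0.19 on the log2 scale, from 445 ± 102 to 287 ± 22.9 CPM (SD, n = 3; edgeR adjusted p = 0.0271), a level 1.55-fold higher in fetuses. Leaving out fetal library 2 ended the call (adjusted p = 0.0614), as did leaving out fetal library 3 (0.0901, at -0.45), lamb library 1 (0.0832) or lamb library 2 (0.0662), and scaling by library totals (0.555, at -0.17); the adjusted p-values of all alternatives lay between 0.00518 and 0.555.

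ESAM, an immunoglobulin-domain adhesion molecule of endothelial tight junctions that platelets also carry (ENSOARG00000010670, chromosome 21, 27454082 to 27462372), went the other way in its values. It was at 110, 119 and 121 CPM in fetuses and at 139, 139 and 130 CPM in lambs. The stages did not overlap, but the difference was small and missed the threshold (log2 difference 0.22 ± 0.11, 95% interval -0.03 to 0.48, adjusted p = 0.134). ESAM replicates were tight, with a highest count 1.25 times the lowest among fetal and 1.08 times among lamb libraries.

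ROBO4, the endothelial member of the roundabout receptor family and a stabiliser of the vessel barrier, lies 107788 bases from ESAM on the same chromosome (ENSOARG00000010929, 27570161 to 27584020). Its values were 102, 114 and 103 CPM in fetuses and 119, 117 and 95.1 CPM in lambs. The stages overlapped and the means were 106 ± 6.79 and 110 ± 13 CPM (SD, n = 3). The log2 difference was 0.05 ± 0.13, with a 95% interval of -0.25 to 0.35 (adjusted p = 0.776). A 7SK gene model overlaps ROBO4 and had 0 counts in every library.

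Of the secreted proteins, VWF is von Willebrand factor, stored in endothelial Weibel-Palade bodies and in platelets, where it ties platelets to damaged vessel walls (ENSOARG00000008752, chromosome 3, 208164815 to 208288418). It had 449, 525 and 516 CPM in fetuses and 720, 614 and 463 CPM in lambs. The fetal libraries were close together. Lamb libraries 1 and 2 lay above all of them and lamb library 3 within their range. The log2 difference was 0.27 ± 0.19 (95% interval -0.16 to 0.70, adjusted p = 0.271), and it was 0.12 without lamb library 1 and 0.43 without lamb library 3, still uncalled. Of 10 platelet names 5 were in the table, with summed levels of 1.61 to 2.28 CPM in fetal and 0.840 to 1.10 CPM in lamb libraries. ITGA2B, GP1BA, GP1BB, GP9 and PF4 had no row. The part of platelets in the VWF values was not tested.

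EGFL7 encodes a secreted factor with EGF-like domains that is made by endothelium, and its introns host the endothelial microRNA miR-126 in mammals (ENSOARG00000003778, chromosome 3, 2733290 to 2735571). EGFL7 was at 21.8, 24.6 and 24.3 CPM in fetuses and at 17.4, 14.5 and 9.85 CPM in lambs. The fetuses lay close together and every lamb was lower. It fell by 0.76 ± 0.21 on the log2 scale, from 23.6 ± 1.55 to 13.9 ± 3.83 CPM (SD, n = 3; adjusted p = 0.0194), a level 1.69-fold higher in fetuses. EGFL7 was not called when fetal library 2 (adjusted p = 0.0632) or fetal library 3 (0.0584) was left out or with scaling by library totals (0.334, at -0.28), within a range of 0.00625 to 0.334 over all alternatives. A gene model of unknown name, ENSOARG00000002277, spans EGFL7 on the chromosome, and it had at most 1 count in a library.

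Among the transcription factors, SOX17 encodes a SOXF factor known for the specification of arterial endothelium (ENSOARG00000020176, chromosome 9, 35068884 to 35069684). Its 3 fetal values were 2.87, 2.65 and 4.66 CPM, and its lamb values 6.87, 7.21 and 6.85 CPM. Every lamb was above every fetus, and the lambs were nearly alike at 137 to 139 counts. SOX17 rose by 1.03 ± 0.25, from 3.39 ± 1.10 to 6.98 ± 0.206 CPM (SD, n = 3; adjusted p = 0.0125), 2.05-fold. It was called under every alternative run, with adjusted p between 0.00143 and 0.0465, although the fetal libraries held only 36 to 78 counts of it.

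PROX1, the homeobox factor that sets lymphatic identity (ENSOARG00000009324, chromosome 12, 67669720 to 67719470), was at 4.12, 1.99 and 3.16 CPM in fetuses and at 2.12, 4.05 and 2.25 CPM in lambs. The stages overlapped fully, and the libraries held between 27 and 78 counts. The log2 difference was -0.15 ± 0.37 (adjusted p = 0.773), and its 95% interval, -1.01 to 0.72, leaves room for a change of either sign at this depth. The direction turned with scaling by library totals, at 0.31, and without fetal library 1, at 0.11, or lamb library 1, at 0.02.

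LYVE1, the hyaluronan receptor of lymphatic capillaries, which subsets of tissue macrophages also carry (ENSOARG00000011072, chromosome 15, 41659482 to 41673383), differed most. It stood at 13.9, 8.39 and 15.0 CPM in the fetal and at 37.6, 55.1 and 51.0 CPM in the lamb libraries. The lowest lamb was well above the highest fetus. LYVE1 rose by 1.94 ± 0.24, from 12.4 ± 3.54 to 47.9 ± 9.16 CPM (SD, n = 3; adjusted p = 6.95e-04), 3.84-fold. The call held under every alternative run, with adjusted p between 1.03e-12 and 0.00361.

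Many macrophage markers were also higher in lambs. Of 18 names 16 were in the table, 15 were tested, and 9 were called higher and 0 lower, against 22.0% called higher among all genes. The median log2 difference was 1.20. The 6 uncalled were STAB1, CSF1R, FOLR2, TIMD4, C1QB and C1QC. Among the lambs the order differed for the sum with MRC1: LYVE1 was lowest in lamb library 1, where that sum was highest (1732 CPM, against 1626 and 1425 CPM in lamb libraries 2 and 3). None of the 16 was at 0 in all libraries, and their summed level was 280 to 544 CPM in fetuses and 1425 to 1732 CPM in lambs. Without MRC1 the other 15 summed to 238 to 475 CPM in fetuses. In lamb libraries 1, 2 and 3 they summed to 588, 611 and 606 CPM, the same order as LYVE1 among the lambs. MRC1, a mannose receptor of macrophages that lymphatic endothelium expresses too, was at 61.9, 41.9 and 69.1 CPM in fetuses and at 1144, 1016 and 819 CPM in lambs and rose by 4.11 ± 0.25 (adjusted p = 5.03e-05). STAB1, a scavenger receptor of both cell types, was at 84.7 to 115 CPM in fetuses and at 92.8 to 112 CPM in lambs. LYVE1 counts came to 3.52, 3.00 and 2.75% of the summed macrophage counts in fetuses and 2.17, 3.39 and 3.58% in lambs, so that the stages overlapped. Without MRC1 in the sum they came to 4.18, 3.53 and 3.15% in fetuses and 6.38, 9.02 and 8.42% in lambs, with every lamb higher. The part of macrophages in the rise of LYVE1 was not tested.

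LYVE1 was called and PROX1 was not. The ratio of LYVE1 to PROX1 counts was 3.38, 4.22 and 4.74 in fetuses and 17.7, 13.6 and 22.7 in lambs, with every lamb above every fetus, a ratio formed after both genes' values were seen and given as a description. Of 16 other lymphatic genes, 14 were in the table and 12 tested, and 3 were called higher and 0 lower, leaving 9 uncalled (median log2 difference 0.55). The share called higher was near the background of 22.0%. ITGA9, an integrin chain of lymphatic valves, rose by 1.23 ± 0.19 (adjusted p = 0.00163), with means of 23.9 ± 0.412 CPM in fetuses and 55.9 ± 14.8 CPM in lambs (SD, n = 3). The valve factor gene FOXC2 rose by 1.04 ± 0.34 (adjusted p = 0.0368) and MMRN1, which encodes a multimerin, by 0.87 ± 0.29 (adjusted p = 0.0405). The calls of FOXC2 and MMRN1 were lost without lamb library 2 (adjusted p = 0.115 and 0.0600, with MMRN1 at 0.46), and also on leaving out any 1 fetal library or lamb library 3. FOXC2 was not called with the replicate block (0.0814), the DESeq2 Wald test (0.0532), limma-voom (0.0565) or a minimum of 1 count (0.0535) either, nor MMRN1 with upper quartile factors (0.0533) or limma-voom (0.0557).

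Lamb library 2 stood out in the lymphatic genes. It held the highest lamb value for 10 of the 12 tested lymphatic genes and for PROX1 and LYVE1 as well. The summed level of the 14 lymphatic genes, without PROX1 and LYVE1, was 203 to 233 CPM in fetal libraries, 239 and 261 CPM in lamb libraries 1 and 3, and 496 CPM in lamb library 2. The same library had 589 CPM of MYH11, the smooth muscle myosin gene, against 85.7 and 113 CPM in the other lambs. Its summed level of pericyte and smooth muscle genes was 1735 CPM against 603 and 703 CPM. It held the highest lamb value for 7 of these 11 genes and the lowest for 3, namely RGS5, CSPG4 and NOTCH3. RGS5 was at 33.2 CPM there against 76.3 and 74.9 CPM in lamb libraries 1 and 3, and CSPG4 at 31.9 CPM against 53.5 and 52.7 CPM. Between the stages, 2 of the 11 pericyte and smooth muscle genes were called higher and 2 lower, near the background of 22.0% and 22.7%. The part of these cells in the lymphatic values was not tested. PROX1 counts came to 1.77, 0.978 and 1.38% of the summed counts of the 14 other lymphatic genes in fetuses and to 0.890, 0.816 and 0.863% in lambs. By that ratio, also formed after the values were seen, every lamb was below every fetus and lamb library 2 was not above the other lambs.

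**Figure D2:**
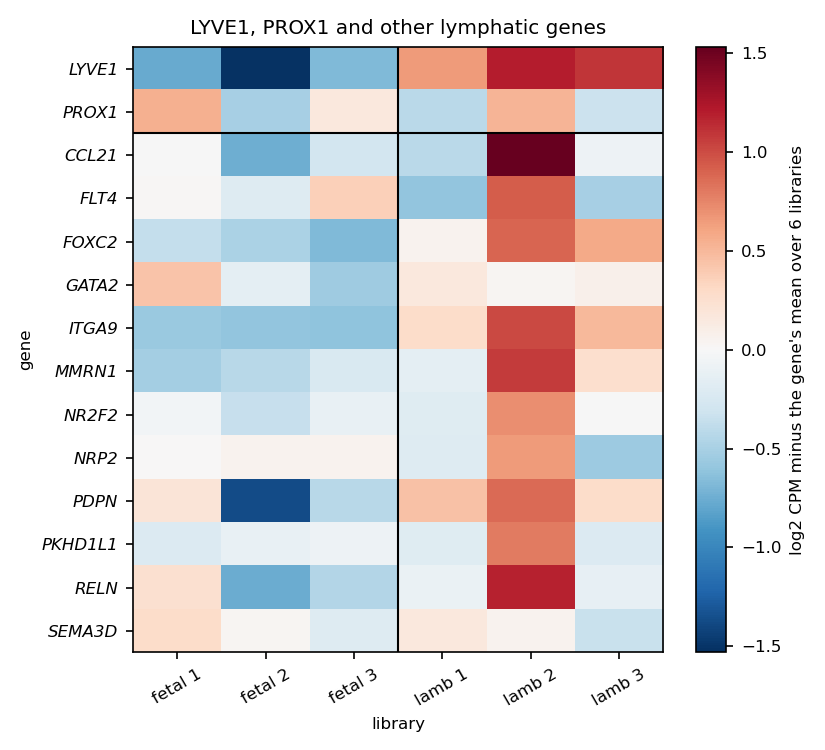
Log2 CPM of LYVE1, PROX1 and the 12 tested lymphatic genes in each library, less the mean of the gene over the 6 libraries, with red above and blue below it. LYVE1 is low in all 3 fetuses and high in all 3 lambs, while 10 of the 12 lymphatic genes are higher in lamb library 2 than in the other lambs.

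Which blood endothelial genes were called differed between TMM scaling and library totals. With scaling by library totals alone the median log2 difference of all genes was 0.46, against -0.01 with TMM. Then 5 of the 8 genes were higher and 0 lower, at a background of 51.8% called, 41.1% higher and 10.7% lower. VWF was at 0.75 (adjusted p = 0.0131), ESAM at 0.70 (0.00701) and ROBO4 at 0.53 (0.0258), while CDH5 and EGFL7 were not called. Relative to that median of 0.46, ROBO4 was close to the typical gene and CDH5 and EGFL7 were below it, as with TMM. Library totals taken without the mitochondrial genome genes gave 2 genes higher and 2 lower, the counts seen with TMM. DESeq2 size factors and upper quartile factors each gave 2 higher and 2 lower as well.

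**Figure D3:**
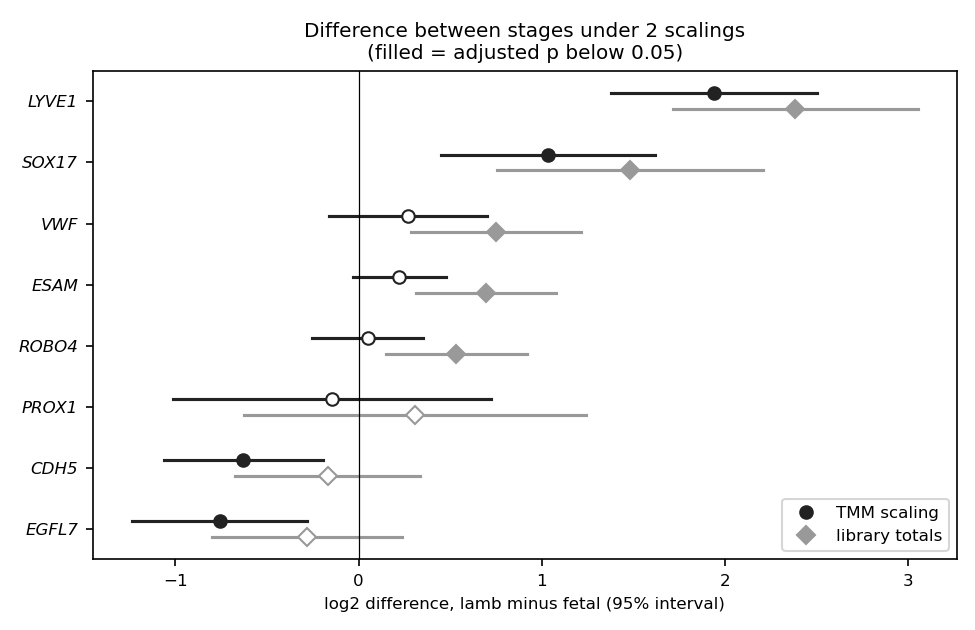
Log2 difference between lamb and fetal libraries with 95% intervals for the 8 genes, with TMM scaling (black circles) and with library totals (grey diamonds), filled where adjusted p was below 0.05. Each gene lies further to the right with library totals, and LYVE1 and SOX17 are called under both.

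Ratios within a library do not depend on the scaling, and CDH5 served as the common denominator. Of 7 ratios, 5 did not overlap between the stages, those of LYVE1, SOX17, VWF, ESAM and ROBO4, each higher in every lamb. Since CDH5 itself was lower in every lamb, this count is read against the same ratio of all other tested genes, of which 57.2% did not overlap and 48.2% were higher in every lamb. A two-sided exact permutation test returned p = 0.1 for each of the 5, the floor of a 3 against 3 design, and 0.14 after adjustment over the 7. VWF had 1.29, 1.21 and 0.938 counts per CDH5 count in fetuses and 2.74, 2.11 and 1.5 in lambs. The mean log2 ratio was higher in lambs by 0.86 for VWF, 0.83 for ESAM, 0.65 for ROBO4, 1.69 for SOX17 and 2.58 for LYVE1. EGFL7 differed by -0.19 and PROX1 by 0.47, and their stages overlapped (exact permutation p = 0.7 and 0.4). Leaving out 1 library moved the EGFL7 value between -0.43 (without lamb library 1) and 0.09 (without lamb library 3) and the PROX1 value between 0.18 (without fetal library 2 or lamb library 2) and 0.87 (without fetal library 1). Against the summed counts of 32 other blood endothelial genes, VWF was at 0.18, ESAM at 0.15 and ROBO4 at -0.03, with overlapping stages. CDH5 counts, which are not in that sum, came to 11.6, 12.9 and 15.8% of it in fetuses and 8.64, 8.14 and 8.11% in lambs.

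**Figure D4:**
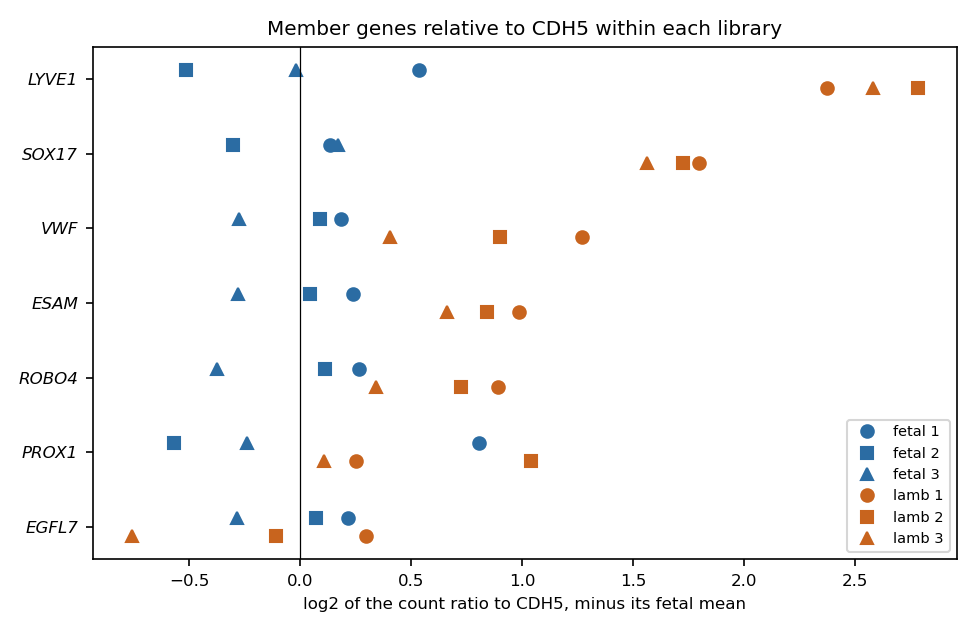
Log2 ratio of the counts of 7 genes to those of CDH5 in the same library, less the fetal mean of that ratio, with fetal libraries in blue and lamb libraries in orange. The stages are apart for LYVE1, SOX17, VWF, ESAM and ROBO4 and overlap for PROX1 and EGFL7.

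Levels of different genes were compared per kilobase, with the gene length implied by the mean RPKM that the authors deposited per stage (reads scaled to gene length and library size). In fetuses ESAM was highest at 73.7 ± 3.87 CPM per kilobase (SD, n = 3). VWF at 47.7 ± 3.97, CDH5 at 47.2 ± 10.8 and ROBO4 at 36.5 ± 2.33 followed, neighbours whose library values overlapped. EGFL7 at 21.1 ± 1.39, LYVE1 at 11.8 ± 3.37, SOX17 at 3.1 ± 1.01 and PROX1 at 1.37 ± 0.475 lay apart from one another. In lambs ESAM was again highest, at 85.9 ± 3.17, and VWF (57.6 ± 12.4), LYVE1 (45.5 ± 8.71), ROBO4 (37.8 ± 4.46) and CDH5 (30.5 ± 2.43) followed with each overlapping the next. LYVE1 thus stood at rank 6 of 8 in fetuses and at rank 3 in lambs on this scale, and CDH5 at rank 3 and rank 5. EGFL7 (12.5 ± 3.42), SOX17 (6.39 ± 0.188) and PROX1 (1.25 ± 0.478) lay below them, apart from one another. The implied length of SOX17, 1092 bases, is longer than its model of 801 bases, so the scale orders genes but its unit is not exact.

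The other blood endothelial genes also moved in both directions. Of 40 names 32 were in the table and 31 tested, and 10 were called higher and 6 lower, leaving 15 uncalled, around a median log2 difference of 0.15. Without lamb library 3 the count called higher was 6. The share of either direction can be read against the background of 22.0% higher and 22.7% lower. Their summed level overlapped between the stages, at 3005 to 3489 CPM in fetuses and 3046 to 3806 CPM in lambs.

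THBD, which encodes the anticoagulant receptor thrombomodulin, was at 24.8, 15.6 and 25.7 CPM in fetuses and at 53.6, 97.3 and 94.3 CPM in lambs and rose by 1.89 ± 0.28 (adjusted p = 0.00144). TM4SF1, a tetraspanin-like surface protein, rose by 1.41 ± 0.25, RASIP1, a RAS-interacting protein of vessel tube formation, by 1.01 ± 0.17, and ACVRL1, the endothelial receptor for BMP9, by 1.01 ± 0.14. NOS3, the endothelial nitric oxide synthase gene, was at 355, 430 and 373 CPM in fetuses and at 94.0, 162 and 138 CPM in lambs and fell by 1.55 ± 0.21 (adjusted p = 9.96e-04). CD34, a sialomucin of capillary endothelium and of progenitor cells, fell from 236 ± 39.0 to 95.7 ± 4.83 CPM (log2 difference -1.30 ± 0.15). TIE1, an orphan receptor tyrosine kinase, fell by 1.20 ± 0.19, and LMO2, a transcriptional partner of TAL1 and GATA factors, by 1.20 ± 0.20. KDR, the main VEGF receptor, named here after its values were seen, was at 431 ± 27.2 CPM in fetal and 381 ± 23.0 CPM in lamb tissue (SD, n = 3) and was not called (adjusted p = 0.289).

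Arterial and venous genes were split as well. Of 15 arterial genes, all tested, 4 were called higher and 2 lower, leaving 9 uncalled (median 0.01). The share called higher was slightly above the background of 22.0%, and the share called lower was below the background of 22.7%. The Notch ligand gene JAG1 was at 65.3, 56.1 and 60.0 CPM in fetuses and at 177, 300.3 and 286 CPM in lambs and rose by 2.07 ± 0.21 (adjusted p = 3.13e-04). The connexin genes GJA5 and GJA4 parted: GJA5 rose from 8.89 ± 1.13 to 29.6 ± 3.06 CPM (log2 difference 1.73 ± 0.15) while GJA4 fell by 0.65 ± 0.15. FBLN5, an elastic fibre protein, rose by 0.84 ± 0.17, and the kinase gene BMX by 0.96 ± 0.28, a call lost without fetal library 2 or 3 or lamb library 1 or 2 (adjusted p between 0.0726 and 0.0852). NRP1, a VEGF and semaphorin coreceptor, fell by 0.84 ± 0.13. Neither NRP1 nor GJA4 was called with library totals (adjusted p = 0.116 and 0.464).

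Of 5 tested venous genes 1 was called higher and 1 lower, leaving 3 uncalled, a share near the background of 22.0% and 22.7%. All 5 were highest among the lambs in lamb library 2, where they summed to 215 CPM against 132 and 169 CPM in lamb libraries 1 and 3. The lists share members: NR2F2 is also in the lymphatic list and SELP in the blood vessel list. DARC, the atypical chemokine receptor of venules that red cells also carry, rose by 1.41 ± 0.34 (adjusted p = 0.0117), while red cell genes were lower in lambs, with a summed level of 385 to 1310 CPM in fetuses and 58.3 to 85.8 CPM in lambs. APLNR, the apelin receptor, was at 12.1, 12.9 and 21.3 CPM in fetuses and at 4.0, 4.36 and 2.55 CPM in lambs and fell by 2.09 ± 0.30 (adjusted p = 0.00121).

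**Figure D5:**
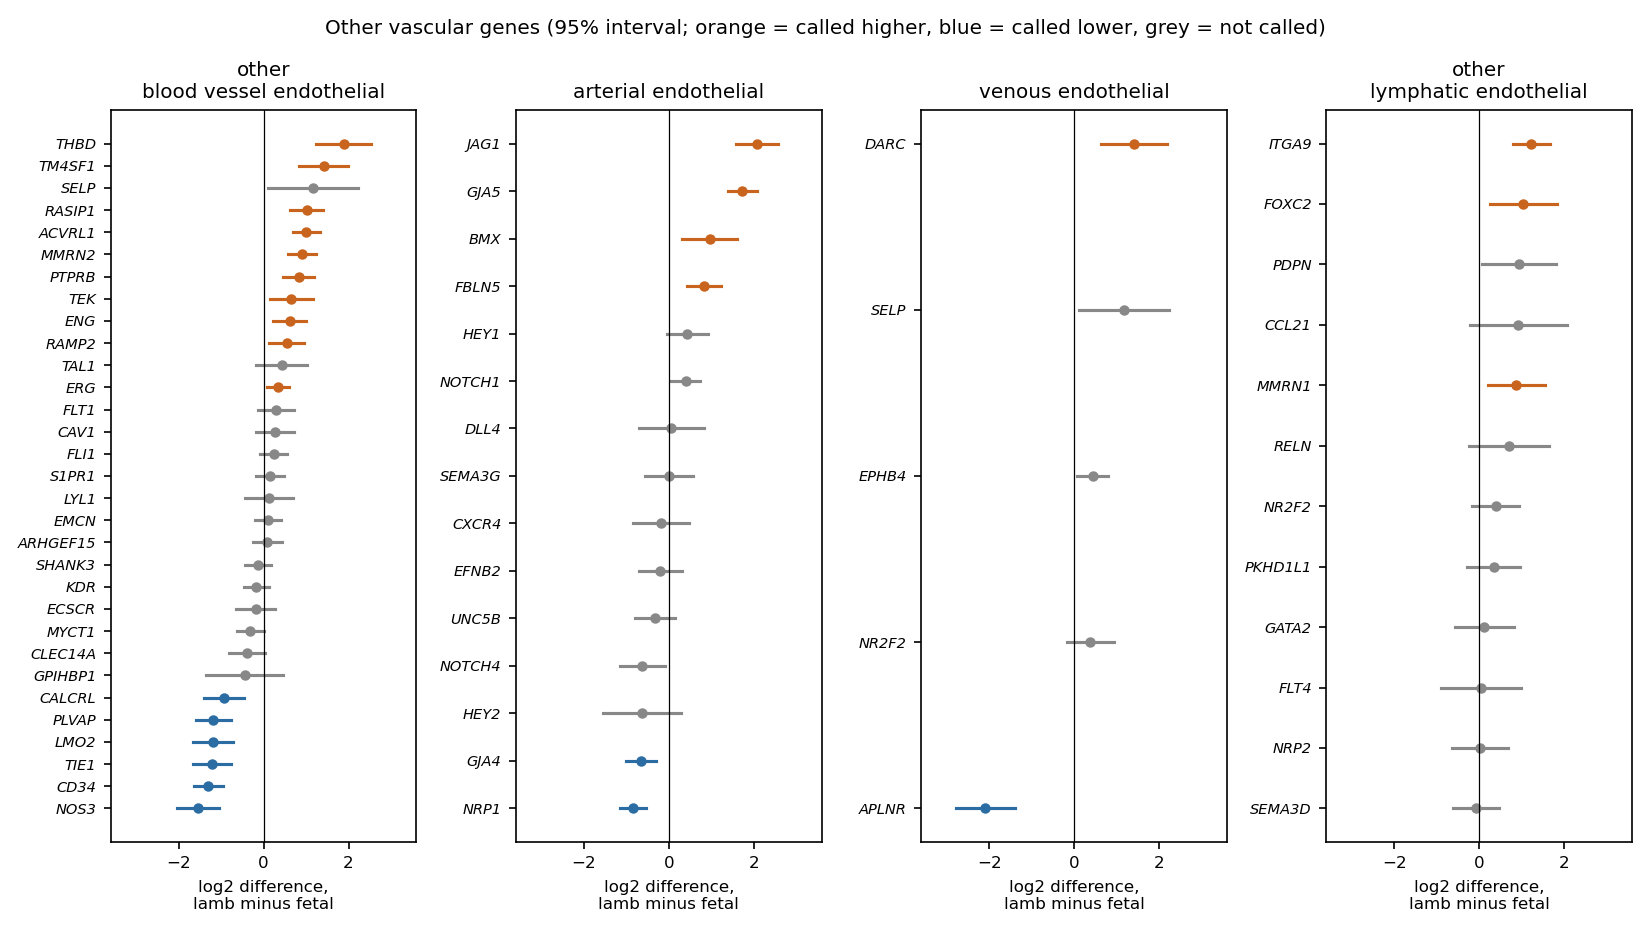
Log2 difference between lamb and fetal libraries with 95% intervals for the tested genes of 4 other vascular lists, with TMM scaling, orange for genes called higher, blue for genes called lower and grey for genes not called. Genes of blood vessel, arterial and venous lists lie on both sides of 0, from NOS3 at -1.55 to THBD at 1.89 in the first list.

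In the authors' deposited table, whose own edgeR comparison gives signed linear folds, LYVE1 stood at 3.88 (adjusted p = 3.36e-12), SOX17 at 2.07 (0.0114), CDH5 at -1.53 (0.0361) and EGFL7 at -1.68 (0.0157). The remaining 4 genes had adjusted p-values between 0.518 and 1 in that table. The 4 genes past 0.05 there were the 4 called here, in the same directions.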

How the data were processed

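Single-end 50 bp libraries from 6 animals were run on 1 flowcell, per the labels' protocols. CLC Genomics Workbench 7.0 mapped the reads to Ensembl models (OARv3.1.74), per the series' design text. How strand and multiply mapped reads were handled is not given here. The authors deposited whole-number read counts per gene and library, mean RPKM per stage, and the p-value and signed fold score of their own comparison. The 12 RPKM columns of single libraries in both tables were not used, since a header repeats fetal sample 3 where sample 2 would stand.

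The test on the counts was that of edgeR 4.0.16 under R 4.3.3 (filterByExpr, TMM, quasi-likelihood F test without covariates), with limma 3.58.1 and DESeq2 1.42.0 as alternatives. The fit was tested on simulated data. The SE is the log2 difference divided by the root of F. Bracketed locations were removed from gene names before matching. Summed levels are sums of CPM over the genes of a list.

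The genes, the other lists, the tests and the rule for naming genes were chosen with earlier results of these data known, so no list is independent support. From each other vascular list, the rule named up to 4 called genes in each direction at 1 CPM or more; from lists of other cell types, the 2 of highest mean CPM. Ratios of LYVE1 to macrophage genes, to PROX1 and of PROX1 to lymphatic genes were added after values were seen. A search for promoter motifs was not made, as no sequence was used here.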

Additional observations from a re-analysis of the deposited data

How the results depend on the processing

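The differences of LYVE1 and SOX17 kept their direction and their call under all 16 alternatives run for each. With scaling by library totals the log2 differences of the others were -0.17 for CDH5, 0.75 for VWF, 0.53 for ROBO4, -0.28 for EGFL7, 0.70 for ESAM and 0.31 for PROX1, where PROX1 changed sign. The endothelial genes were then 5 higher and 0 lower out of 8, and all genes 5598 higher (41.1%) and 1459 lower (10.7%). Called higher were 18 of 31 other blood vessel genes, 8 of 12 lymphatic, 6 of 15 arterial and 4 of 5 venous genes. Called lower were 5, 0, 0 and 1 of them, in the same order. The cause was not tested. Upper quartile factors put ROBO4 at -0.00377 (adjusted p = 0.986). limma-voom called 1 lymphatic gene higher, and 2 venous genes were called higher with DESeq2 size factors and 3 with the DESeq2 Wald test. With the summed blood vessel genes in place of CDH5, the log2 ratios were 0.18 for VWF, -0.0287 for ROBO4, -0.87 for EGFL7, 0.15 for ESAM, 1.90 for LYVE1, -0.21 for PROX1 and 1.01 for SOX17.

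Leaving out 1 library at a time moved CDH5 between -0.78 and -0.45, EGFL7 between -0.95 and -0.56, VWF between 0.12 and 0.43, ROBO4 between -0.00284 (without lamb library 1) and 0.15, and PROX1 between -0.50 and 0.11 (without fetal library 1), with 0.02 without lamb library 1. The log2 ratios to CDH5 moved between 0.65 and 1.08 for VWF, 0.46 and 0.81 for ROBO4, 0.69 and 0.95 for ESAM, 2.32 and 2.85 for LYVE1 and 1.54 and 1.78 for SOX17. Genes called lower among the 8 then numbered 0 to 2, blood vessel genes called higher 6 to 10 (6 without lamb library 3), lymphatic genes called higher 1 to 3 (1 without fetal library 2 or 3 or lamb library 2 or 3) and lower 0 to 1, and venous genes called higher 1 to 2. Calls over all genes fell too, to 2286 to 2796 higher and 2512 to 2903 lower, from 3002 and 3093 with all libraries. Of 20 other genes, MRC1 and the vascular genes that the rule named, 15 were called under every alternative. The vascular genes were named because they were called, so this share is that of a list picked for its calls. Depth limits PROX1 and SOX17, at 27 to 139 counts a library.

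The replicate numbers did not pair the samples: the deviations of same-numbered samples correlated at 0.003, -0.116 and 0.046. With the replicate block, 2 of the 8 genes were higher and 2 lower, CDH5 was at -0.61 (adjusted p = 0.0299) and EGFL7 at -0.79 (0.0316), and 2598 of all genes were higher and 2755 lower, while FOXC2 was not called (0.0814). A ratio to PECAM1 was not run, since that gene had no row.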

Other observations

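Tested genes were ranked by how closely their log2 CPM followed each endothelial gene over the 6 libraries, as a description with no test. The measure was the Euclidean distance between centred profiles, and only genes with a gene symbol were ranked. The nearest to LYVE1 was THBD, the thrombomodulin gene of the blood vessel list, at 0.314, and next came GCH1 at 0.323 and TUBB6 at 0.364. The nearest to SOX17 was C11orf80 at 0.228, to CDH5 ANKRD24 at 0.195, to EGFL7 IQSEC2 at 0.175 and to VWF MTSS1L at 0.159. ROBO4 lay nearest to MED31 at 0.116 and ESAM to ERGIC3 at 0.0567. The nearest to PROX1 were CRYGS at 0.259 and APLN, the apelin gene, at 0.307.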
